A study of Mus musculus with 48 samples.

Results

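Liver RNA from the end of the subjective night was compared with liver RNA from the beginning of the subjective day. The late night group holds the pools taken at circadian hours 20 to 22 (CT20, CT21, CT22, CT44, CT45 and CT46), and the early day group those taken at hours 1 to 3 (CT25, CT26, CT27, CT49, CT50 and CT51), so 12 of the 48 pools of the series were used, 6 a side. Hour 0 is subjective dawn. The pools at hours 23 and 0 (CT23, CT24, CT47 and CT48) lie between the groups and were used for description. All pools came from 6-week-old male wild-type C57BL/6J mice that had been entrained to 12 h of light and 12 h of darkness and then moved to complete darkness, with no other treatment in either group. Each pool combined the livers of 3 to 5 mice and was read on 1 Affymetrix mouse array of 45101 probe sets, so the mice within a pool cannot be separated, and hours, not replicate pools of an hour, give the spread. The comparison asks which transcripts change level as the night ends. In whole liver, fewer cells of a type and less RNA per cell cannot be told apart.

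The molecular clock of the liver is a loop in which CLOCK or its relative NPAS2 pairs with ARNTL (BMAL1) and drives transcription of its own repressors, the PER and CRY proteins, and of the nuclear receptors REV-ERB alpha and beta (Nr1d1, Nr1d2), which in turn repress Arntl and Npas2. Mice eat mainly at night, and the liver shifts over the day between storing and releasing fuel. Hepatocytes also secrete most plasma proteins, which are folded in the endoplasmic reticulum (ER) by chaperones such as the HSP70 family member HSPA5 (BiP). When unfolded proteins accumulate there, the sensors EIF2AK3 (PERK), ERN1 (IRE1) and ATF6 raise the output of chaperone and degradation genes, a program called the unfolded protein response.

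Values are deposited intensities on a linear scale, tested as log2 with limma and the cycle (CT18 to CT41 or CT42 to CT65) as a covariate. A probe set was called at a Benjamini-Hochberg adjusted p under 0.05 over all probe sets, and each of 18194 genes was read through its brightest probe set. From late night to early day 144 probe sets (0.319%) rose and 143 (0.317%) fell, and by gene 105 (0.577% of genes) rose and 68 (0.374%) fell. The median fold was 1.47 among the genes that rose and 1.49 among those that fell, and 16 and 13 of them changed at least 2-fold. The plot of the change of every gene shows both arms. The groups did not overlap for 355 genes (1.95%), among them 88 of the 105 and 59 of the 68. The largest rises and falls named below were drawn from genes with separate groups, so that trait follows from the choice. The median change over all genes was -0.0031 on the log2 scale.

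Of the 12 pools, 3 stood apart. CT25 and CT46 held transcripts of pancreatic acinar cells, which make digestive enzymes: carboxypeptidase Cpa1 read 40170 in CT25 and 10661 in CT46 against 51.7 to 55.3 in the other 10 pools, and chymotrypsinogen Ctrb1 read 41275 and 7524 against 56.0 to 59.6. These pools lie 1 in each group. CT25, CT27 and CT46 also had the lowest median correlation with the other arrays of the series (0.9897, 0.9888 and 0.9904, against 0.9915 to 0.9952 in the other 9). Without these pools 139 probe sets were called, and 27 of the 105 and 13 of the 68 genes stayed called.

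**Figure D1:**
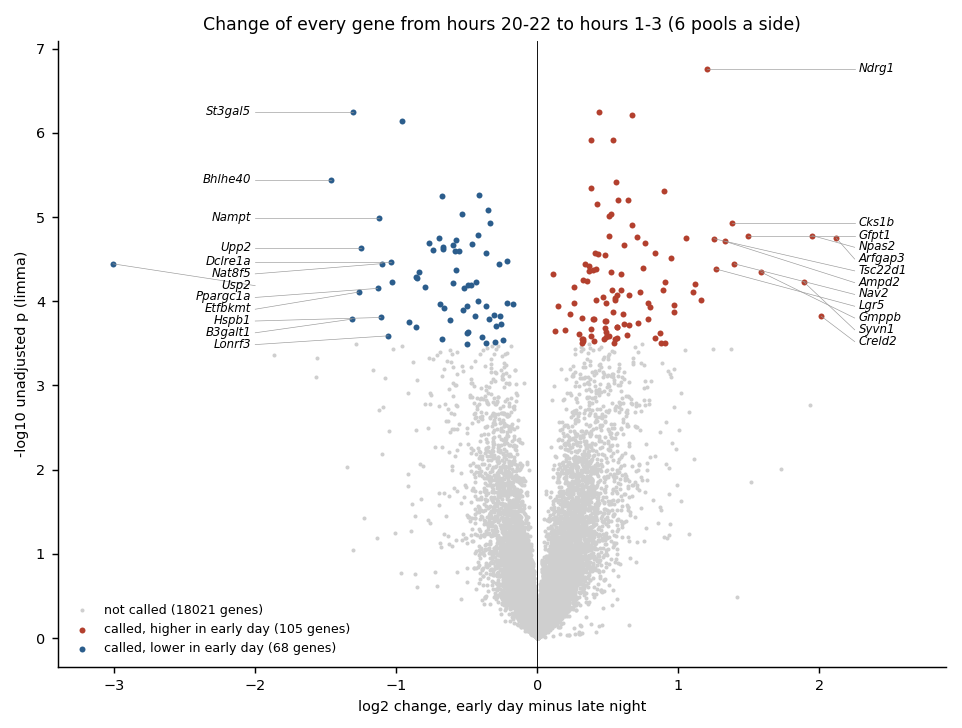
Log2 change from late night to early day (x axis) against the negative log10 of the unadjusted p from limma (y axis), 1 point per gene for 18194 genes, 6 pools a side. The 105 genes called higher are red and the 68 called lower are blue, and the 24 labelled genes are the 12 largest rises, up to 2.12 for Arfgap3, and the 12 largest falls, down to -3.01 for Usp2.

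A set of genes of protein folding and traffic in the ER rose from late night to early day. The 5 ER lists held 74 measured genes, of which 9 rose and 0 fell, while 0.577% of all genes rose and 0.374% fell. A positive change was found in 59 of the 74 (79.7%), against 44.7% of all genes. The lists were chosen with earlier results of these data known, so part of this excess may come from the choice. Among the luminal chaperones, which fold secreted proteins, 4 of 11 measured members rose (Hspa5, Manf, Creld2 and Hspa13), and the median log2 change of the list was 0.91.

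Hspa5 lay between 149899 and 223359 intensity units in late night, with a median of 206521, and between 308858 and 496357 in early day, with a median of 364281. Every early day pool was above every late night pool, and the rise was 0.91 ± 0.14 (SE) on the log2 scale, with an adjusted p of 0.0217. The 2 other probe sets of Hspa5 were called as well, at 0.89 and 0.95. Creld2, which encodes a secreted ER protein with disulfide isomerase activity, had the steepest rise of the list. It lay between 7029 and 16112 in late night (median 11001) and between 24732 and 94383 in early day (median 44730). The groups did not overlap, and the change was 2.01 ± 0.34, or 4.03-fold, with an adjusted p of 0.0335. Manf, a secreted ER protein that binds HSPA5, went from 41995 to 58046 (median 46953) to 66831 to 153570 (median 105665). Its groups were also apart, with a change of 1.12 ± 0.17 and an adjusted p of 0.0219. The HSP70-like Hspa13 changed by 0.79 ± 0.14 (adjusted p = 0.0349), and its 3 other probe sets read 0.10 to 0.57, with 0 called. CT50, at hour 2 of the second cycle, was the highest pool for Hspa5, Creld2 and Manf, and its acinar transcripts were at the level of the other pools. CT46, which held acinar transcripts, was the lowest late night pool for Hspa5, Creld2 and Syvn1.

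The other 7 luminal chaperones were not called. Dnajb9, a partner of HSPA5, had a change of 1.37 with overlapping groups that missed the threshold (adjusted p = 0.0529). Hyou1 had 0.92 (adjusted p = 0.135) and Sdf2l1 had 0.91 (adjusted p = 0.235), while Hsp90b1 (GRP94) had 0.36 with groups that did not overlap (adjusted p = 0.144). Dnajb11 had 0.41, Sil1 -0.0017 and Dnajc3 -0.04. The disulfide isomerases and lectin chaperones, which act on the same substrates, had 0 of 10 members called and a median of 0.14, with 2 at an unadjusted p under 0.05. Pdia3, Pdia4, P4hb, Canx and Calr lay between -0.06 and 0.22.

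In ER-associated degradation, which exports misfolded proteins to the cytosol, 2 of 14 members rose. Syvn1, the HRD1 ubiquitin ligase at the centre of this pathway, lay between 3143 and 8443 in late night (median 6346) and between 13651 and 33339 in early day (median 20126). No pool overlapped, and the change was 1.89 ± 0.29, or 3.70-fold (adjusted p = 0.0217). Selenos changed by 0.49 ± 0.08 (adjusted p = 0.0361), with overlapping groups. Sel1l, the partner of SYVN1, had 0.76 with groups apart, but an adjusted p of 0.101.

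Among the sensors and factors of the unfolded protein response 1 of 11 rose. Eif2ak3 lay between 742 and 1154 (median 975) in late night and between 1354 and 2605 (median 1834) in early day, a change of 0.95 ± 0.13 (adjusted p = 0.0153). Its 2 other probe sets read -0.0043 and 0.0084. Xbp1 had 0.26 (adjusted p = 0.405), Ddit3 (CHOP) 0.32 (adjusted p = 0.477), Ern1 0.12, Atf4 0.02 and Atf6 -0.11, none of them called. In ER translocation and ER to Golgi transport 2 of 28 rose. Arfgap3, which controls ARF1 on transport vesicles, had the largest rise of any gene named here. It lay between 158 and 333 in late night (median 261) and between 585 and 1864 in early day (median 1039), a change of 2.12 ± 0.28 (adjusted p = 0.0134) with groups apart. Its other probe set read 0.0070. Sec23b, a subunit of the COPII coat, changed by 0.87 ± 0.16 (adjusted p = 0.0499). The 12 largest rises also held 2 enzymes of sugar nucleotide synthesis, which belong to no list tested here. Gfpt1, the first step of hexosamine synthesis, changed by 1.49 ± 0.20 (adjusted p = 0.0134), and Gmppb, which makes GDP-mannose, by 1.58 ± 0.23 (adjusted p = 0.0185). The 5 other probe sets of Gfpt1 read -0.01 to 0.33, with 0 called.

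Without CT25, CT27 and CT46 the changes of the 9 ER genes that rose were 0.53 to 2.14, against 0.49 to 2.12 with all pools, and 2 of them, Syvn1 and Eif2ak3, stayed called. Of the 9, 8 had their highest mean level of the day at hour 2.

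The ER stress element is the site through which ATF6 acts, CCAAT and CCACG separated by 9 bases. These letters were searched on both strands in the RefSeq promoter windows (GRCm38.p6, 250 bases before to 50 after the start) of 14453 measured genes, and 20 genes (0.138%) held them. Among the genes that rose, 4 of 88 with a window did (Hspa5, Creld2, Syvn1 and Alg12, a mannosyltransferase of the ER), and among those that fell 0 of 55. Across the 20 genes the median change was 0.12 and 11 were positive. Apart from the 4 called genes, Ero1b had 0.62, Hsp90b1 0.36, Derl3 0.38 and Calr 0.22, while Acnat2 had -0.41, Acacb -0.35 and Dnajc3 -0.04, none of them called. The 250 bases before the start of 3 of these genes are printed, since they show where the element lies in the genes with the largest changes, with the matching bases in capitals.
Hspa5, chr2:34771840-34772089, plus strand: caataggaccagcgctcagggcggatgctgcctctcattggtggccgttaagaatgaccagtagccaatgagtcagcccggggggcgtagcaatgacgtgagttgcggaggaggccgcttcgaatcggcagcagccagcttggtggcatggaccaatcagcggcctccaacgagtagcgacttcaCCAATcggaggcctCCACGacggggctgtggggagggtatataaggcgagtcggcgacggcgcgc
Creld2, chr15:88819396-88819645, plus strand: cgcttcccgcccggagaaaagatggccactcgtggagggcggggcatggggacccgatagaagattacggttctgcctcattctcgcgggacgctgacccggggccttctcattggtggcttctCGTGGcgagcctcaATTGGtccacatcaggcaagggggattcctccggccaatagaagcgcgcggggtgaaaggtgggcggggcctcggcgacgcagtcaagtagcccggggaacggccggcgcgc
Syvn1, chr19:6046326-6046575, plus strand: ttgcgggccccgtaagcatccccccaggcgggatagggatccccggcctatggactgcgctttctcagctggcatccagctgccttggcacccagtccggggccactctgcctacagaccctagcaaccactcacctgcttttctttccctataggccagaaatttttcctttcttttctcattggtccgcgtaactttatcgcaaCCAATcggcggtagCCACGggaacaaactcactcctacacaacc
The element began 65 bases before the start of Hspa5 and 44 before that of Syvn1. In Creld2 it lay 126 bases before the start and on the opposite strand, so the capitals there read as the reverse complement. Creld2 and Alg12 are neighbours on chromosome 15, transcribed away from each other, and their match is 1 and the same element at 88819520 to 88819538. Alg12 changed by 0.84 ± 0.15 (adjusted p = 0.0466).

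Other motifs were searched in the same windows on both strands. The E-box CACGTG, bound by CLOCK and ARNTL, was found in 10.2% of all windows, in 13 of the 88 (14.8%) and in 7 of the 55 (12.7%). The ROR element core TAGGTCA was found in 2.57% of all, in 5 of the 88 and in 2 of the 55. The D-box TTATGTAA, bound by DBP, TEF and HLF, was found in 0.837% of all, in 1 of the 88 and in 3 of the 55, and the other D-box searched, TTACGTAA, in 0.18%, 1 and 0. The heat shock element core GAANNTTC was found in 7.6% of all, in 8 of the 88 and in 5 of the 55. The cAMP response element TGACGTCA was found in 2.92% of all, in 2 and 1 of them, and the sterol regulatory element TCACCCCAC in 0.678%, in 1 and 0. A CCACG followed by TG also holds the letters of the E-box. A match is a description of the window only.

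**Figure D2:**
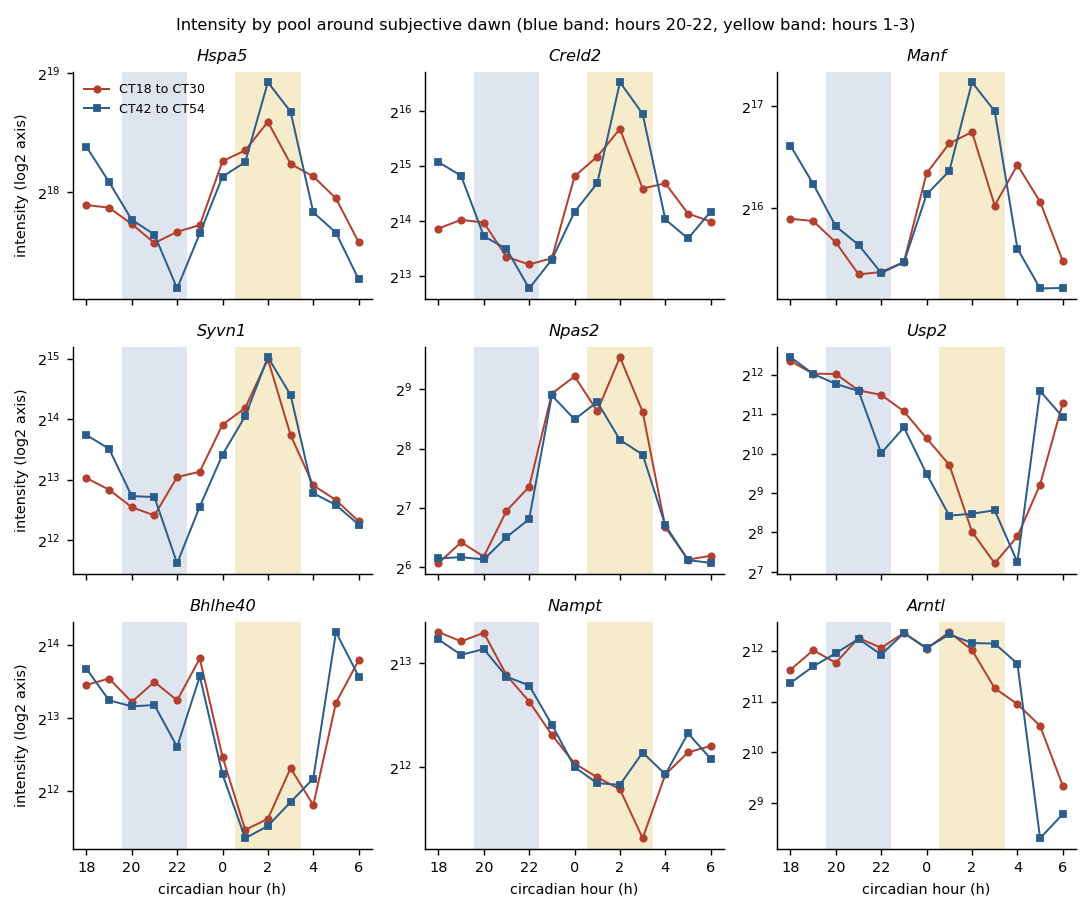
Deposited intensity (y axis, log2 scale) by circadian hour (x axis, hours) for 9 genes, with CT18 to CT30 in red and CT42 to CT54 in blue, 1 point per pool. The blue band marks the late night pools and the yellow band the early day pools. Hspa5, Creld2, Manf and Syvn1 are highest at hour 2 in both cycles, and Npas2 is already raised at hour 23. Bhlhe40 falls after hour 23, and Arntl overlaps between the bands. Usp2 and Nampt are lower in the yellow band than in the blue. After the yellow band both climb at every hour shown in the first cycle, but not in the second.

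Of 24 measured members of the clock lists, 3 were called, Npas2 higher and Bhlhe40 and Usp2 lower, and 21 were not. Npas2, the alternative partner of ARNTL, rose from 70.2 to 164 (median 102) to 239 to 745 (median 396). Its groups did not overlap, and the change was 1.95 ± 0.26 (adjusted p = 0.0134). In CT20 and CT44 it read 72.6 and 70.2, near the lowest of its 48 pools (67.1), a level that 27 pools came within 1.1 times of. The change is therefore a lower bound, and its other probe set read 0.28. Bhlhe40 (DEC1), a repressor that competes at E-boxes, fell from 6239 to 11548 (median 9414) to 2618 to 5092 (median 3045). Its groups were apart too, with a change of -1.46 ± 0.16 (adjusted p = 0.00864). Usp2, a deubiquitinase that acts on PER and CRY proteins, had the deepest fall of all genes. It went from 1032 to 4144 (median 3089) to 149 to 839 (median 350), a change of -3.01 ± 0.43, or 8.05-fold (adjusted p = 0.0165), and its second probe set was called at -2.20. The lowest late night value of Usp2 was that of CT46.

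Neither Arntl, which encodes the partner of NPAS2, nor Clock, which encodes the relative of NPAS2, was called. Arntl lay between 3471 and 4860 in late night and between 2454 and 5265 in early day, a change of 0.01 ± 0.17, and Clock changed by 0.04 ± 0.07. Cry1, a core repressor, lay between 7636 and 11541 (median 10323) in late night and between 3174 and 6778 (median 5344) in early day. Its groups did not overlap, and its change of -1.02 ± 0.20 narrowly missed the threshold (adjusted p = 0.0529). Rora, which activates Arntl, had -0.47 ± 0.10 with groups apart and an adjusted p of 0.066. Nr1d1 had a large change of 1.73 ± 0.55 that was not called (adjusted p = 0.25). It was between 111 and 122 in all late night pools. In early day it climbed hour by hour, with 122, 430 and 1279 in CT25 to CT27 and 137, 470 and 762 in CT49 to CT51. Of the late night pools, 5 of 6 lay within 1.1 times of its lowest pool (110.3), so this change is a lower bound too. Tef had -1.05 ± 0.28 (adjusted p = 0.152) and was called without CT25, CT27 and CT46, at -1.21 with an adjusted p of 0.0156. Per2 had -0.78 ± 0.33 (adjusted p = 0.459) and Dbp -0.54 ± 0.55 (adjusted p = 0.924). Nfil3 had 0.39 ± 0.14 (adjusted p = 0.303), Nr1d2 0.36 ± 0.41 and Per1 -0.34 ± 0.21. Dbp and Nr1d2 also climbed within the early day hours of each cycle. Dbp went from 349 to 3720 and from 350 to 1500, and Nr1d2 from 3444 to 25733 and from 9342 to 19172. At hours 23 and 0 both lay below every late night pool, so their group changes average over a trough and a rise. Cry2, Csnk1d, Csnk1e, Btrc, Ciart, Per3, Hlf and Fbxl21 lay between -0.16 and 0.05. Bhlhe41 and Timeless were dim, at 53.7 to 56.7 and 53.1 to 64.2 over both groups, and their changes were -0.0070 and -0.0096.

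Of the lists of carbohydrate metabolism, gluconeogenesis had 1 of 8 members lower, glycogen metabolism 2 of 10 and glycolysis and glucose uptake 1 of 6. None of their members were higher. Over all genes 0.374% were lower and 0.577% higher. Ppargc1a (PGC-1 alpha), a coactivator of gluconeogenic and mitochondrial genes, lay between 2298 and 3186 in late night (median 2539) and between 820 and 1976 in early day (median 996). The groups were apart, and the change was -1.13 ± 0.18 (adjusted p = 0.0228). The 4 other probe sets of Ppargc1a read -0.95 to -0.30, with 0 called. Ppargc1a was the member of the gluconeogenesis list that was called, and the median of the list was -0.37. G6pc had -0.60 with groups apart (adjusted p = 0.066) and Pck1 -0.89 (adjusted p = 0.38). Gys2, liver glycogen synthase, lay between 14973 and 22799 (median 18971) and then between 10873 and 12165 (median 11743). Its groups were apart, and it fell by 0.67 on the log2 scale (SE 0.09, adjusted p = 0.0135). The branching enzyme Gbe1 fell by 0.36 (adjusted p = 0.0499). Khk, which phosphorylates fructose, fell by 0.22 (adjusted p = 0.0268, groups overlapping).

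Nampt makes nicotinamide mononucleotide in the salvage route to NAD, and it was the 1 member of 12 called in its list. It lay between 6339 and 9994 in late night (median 7513) and between 2562 and 4520 in early day (median 3670). The groups were apart, with a change of -1.12 ± 0.14 (adjusted p = 0.0119), and its 2 other probe sets were called at -1.04 and -0.92. Asl of the urea cycle fell by 0.50 (adjusted p = 0.0499, groups overlapping). Bhmt, which remethylates homocysteine, rose by 0.11 ± 0.02 (adjusted p = 0.0189) from a narrow range of 528283 to 543842 to one of 565949 to 597225.

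In cholesterol synthesis 2 of 17 genes fell and 0 rose, while 0.374% of all genes fell and 0.577% rose. Pmvk, of the mevalonate pathway, changed by -0.91 ± 0.16 (adjusted p = 0.0371), and Msmo1, which demethylates sterols, by -0.52 ± 0.08 (adjusted p = 0.0227). The second probe set of Msmo1 had 0.67, uncalled. In this list 16 of 17 changes were negative, with a median of -0.17, while 44.7% of all genes had a positive change. Of the 17, 7 were lower and 1 higher at an unadjusted p under 0.05. Thrsp, an activator of lipogenesis, had -1.29 and lay just past the threshold (adjusted p = 0.0502), and 0 of 14 genes of fatty acid synthesis and 0 of 14 of fatty acid oxidation were called.

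Cytosolic and mitochondrial heat shock proteins went both ways, with 2 rises and 1 fall among 21. Hspa8, the constitutive HSC70, went from 150383 to 212478 (median 189886) to 222978 to 334369 (median 287329), a change of 0.60 ± 0.10 (adjusted p = 0.0328). Its probe set is one of a kind that can match related transcripts, and its other probe sets read -1.20 to 0.71. Hspa4, a nucleotide exchange factor for HSP70, rose by 0.47 ± 0.08 (adjusted p = 0.0256). The 3 other probe sets of Hspa4 read -0.08 to 0.29, with 0 called. The small heat shock protein Hspb1 fell, from 8310 to 15770 (median 8412) to 3212 to 5488 (median 4871), with a change of -1.11 ± 0.19 (adjusted p = 0.0344) and groups apart. Inducible Hspa1b had 1.51, but with wide spread (adjusted p = 0.288).

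**Figure D3:**
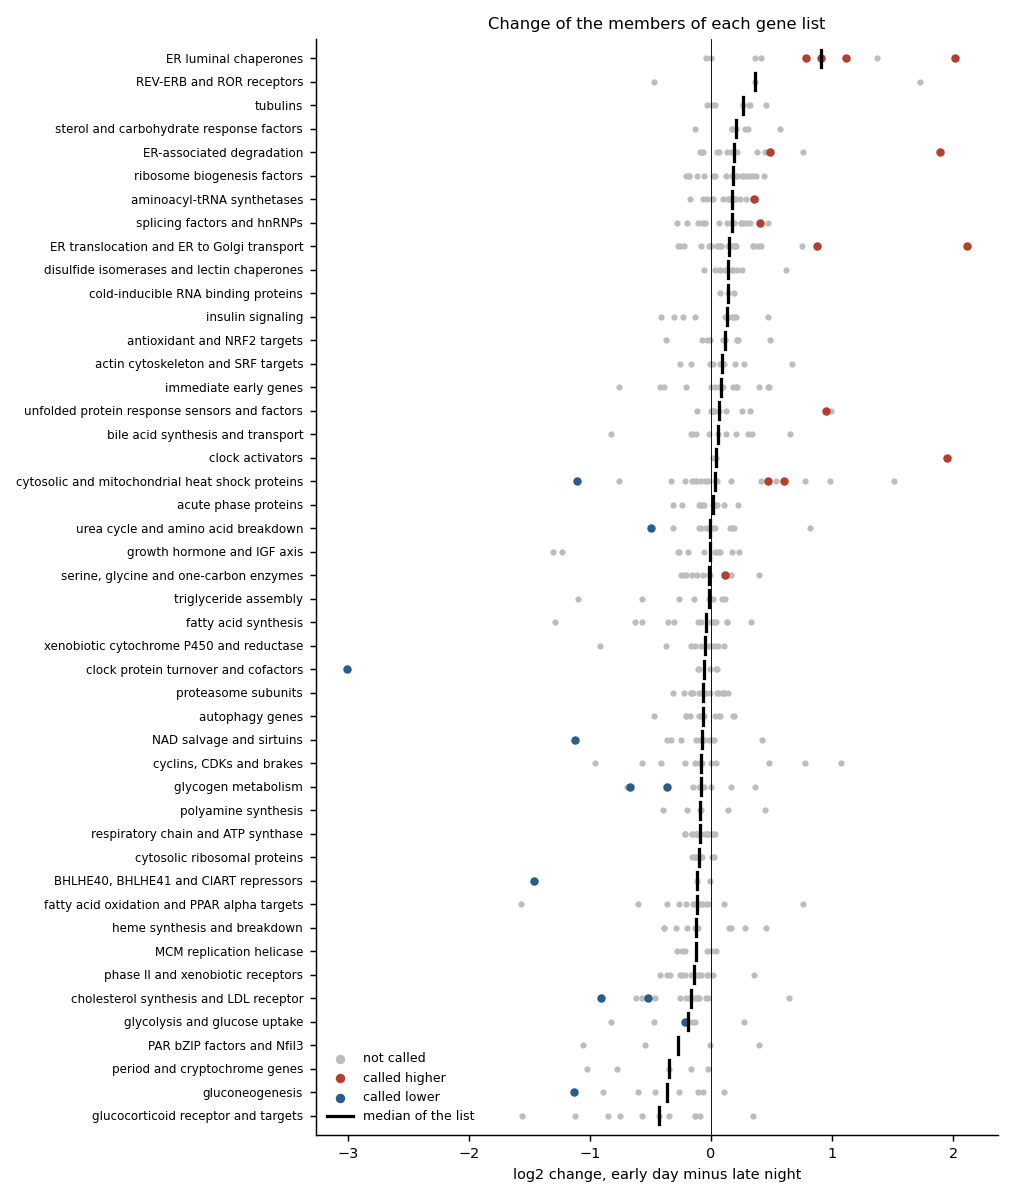
Log2 change from late night to early day (x axis) of each member of 46 gene lists (y axis, ordered by median), 1 point per gene. Red points were called higher, blue points called lower and grey points not called, and the black bar is the median of the list: ER luminal chaperones stand highest at 0.91, and the glucocorticoid receptor and its targets lowest at -0.43 with 0 members called.

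The remaining large rises were spread over other processes. Ndrg1, a stress-responsive cytosolic protein, had the smallest p of all genes. It lay between 1241 and 1812 (median 1499) in late night and between 3087 and 4211 (median 3372) in early day, a change of 1.20 ± 0.10 (adjusted p = 0.0023) with groups apart. Lgr5, the R-spondin receptor expressed by hepatocytes next to the central vein, went from 294 to 584 (median 465) to 871 to 1219 (median 1057), a change of 1.26 ± 0.18 (adjusted p = 0.0179). Its other probe set read -0.0100. Cks1b, a subunit of cyclin-dependent kinases, changed by 1.38 ± 0.17 (adjusted p = 0.0127), Nav2 by 1.396 ± 0.20 (adjusted p = 0.0165), Ampd2, an AMP deaminase, by 1.33 ± 0.18 (adjusted p = 0.0134) and Tsc22d1 by 1.25 ± 0.17 (adjusted p = 0.0134). The 7 other probe sets of Nav2 read -0.05 to 0.66, with 0 called. Of the 12 largest rises, 11 had their highest mean of the day at hour 2. The choice by rise favors a peak in hours 1 to 3. Of all 105 genes that rose, 72 were highest at hours 0 to 3. One member rose among 18 aminoacyl-tRNA synthetases (Hars, 0.35 ± 0.05, adjusted p = 0.0215) and one among 18 splicing factors (Hnrnpk, 0.40 ± 0.07, adjusted p = 0.0349). The other probe set of Hars read 0.04 and the 3 others of Hnrnpk 0.06 to 0.19, with 0 called.

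The remaining large falls included enzymes of sugar and nucleotide chemistry. St3gal5, the GM3 ganglioside synthase, went from 8612 to 13944 (median 10360) to 3632 to 5166 (median 4359), a change of -1.30 ± 0.12 (adjusted p = 0.00322) with groups apart. Upp2, a uridine phosphorylase of liver, went from 43759 to 68715 (median 62488) to 18769 to 34308 (median 26418), a change of -1.25 ± 0.17 (adjusted p = 0.0139). B3galt1, a galactosyltransferase, changed by -1.32 ± 0.23 (adjusted p = 0.0349), Etfbkmt, a lysine methyltransferase of mitochondria, by -1.27 ± 0.20 (adjusted p = 0.0237) and Dclre1a, a DNA crosslink repair nuclease, by -1.04 ± 0.15 (adjusted p = 0.0165). The 2 other probe sets of Dclre1a read -0.09 and 0.13, with 0 called. Nat8f5 and Lonrf3 changed by -1.10 ± 0.16 and -1.06 ± 0.19 (adjusted p = 0.0165 and 0.0452).

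Many lists had no called member. Glucocorticoid receptor targets had the lowest median of all lists, -0.43, with Zbtb16 at -1.56 (adjusted p = 0.0595) and Fkbp5 at -0.75 (adjusted p = 0.095). In that list 10 of 11 changes were negative, while 44.7% of all genes had a positive change. Ribosome biogenesis factors had a median of 0.18 with 7 of 20 higher at an unadjusted p under 0.05, and tubulins 0.27 with 5 of 8, while cytosolic ribosomal proteins had -0.10 with 4 of 13 lower and the respiratory chain -0.09 with 6 of 18 lower. Over all probe sets 9.76% had an unadjusted p under 0.05. Markers of 10 cell types were measured for 48 genes, and 0 were called. The summed hepatocyte markers lay between 2304889 and 2432944 in late night and between 2340954 and 2452811 in early day. Kupffer cell markers summed to 57735 to 75637 and then to 36933 to 84263, with the low value in CT27, and their part in the results was not tested.

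The pools at hours 23 and 0 show how much of the step was already covered at the turn. For each called gene the mean of the 4 pools was placed between the late night mean (0%) and the early day mean (100%). The median was 57.9% for the genes that rose (quartiles 41.2% and 71.4%) and 64.5% for those that fell (49.3% and 78.2%). Npas2 was at 114%, and read 360 to 596 in these pools. Ppargc1a was at 125%. Bhlhe40 was at 8.81%, with both hour 23 pools above every late night pool and both hour 0 pools below every one. The ER genes that rose lay between 17.3% and 70.4%, at 17.3% for Selenos, 23.8% for Creld2, 28.4% for Manf, 38.1% for Hspa5 and 70.4% for Eif2ak3. The 4 genes that rose but lay below late night at the turn were chosen after their values were seen: Depp1 (-143%), Efna1 (-31.6%), Pim1 (-31.1%) and Pspc1 (-9.57%). These placings are descriptions with no test, and the groups that set the scale also chose the genes.

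**Figure D4:**
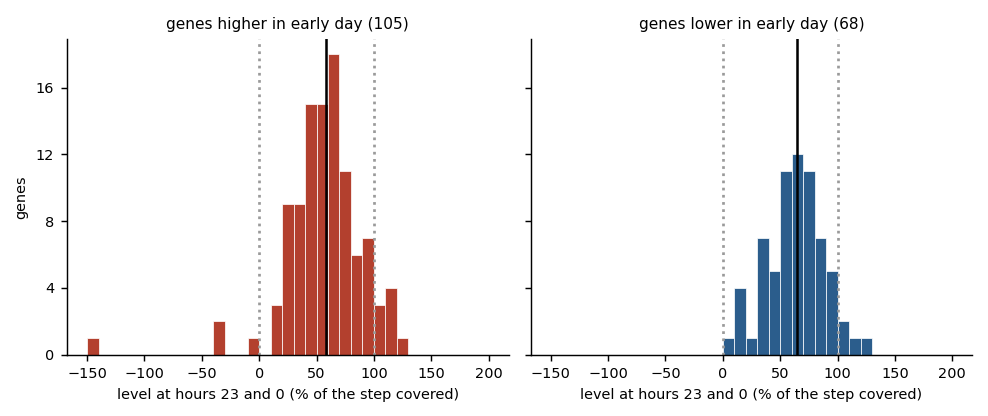
Mean level of the 4 pools at hours 23 and 0, as percent of the step from late night (0) to early day (100) covered (x axis), with the number of genes on the y axis, for the 105 genes that rose (red) and the 68 that fell (blue). Black lines mark the medians, 57.9% and 64.5%, and dotted lines mark 0 and 100.

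The same change can be measured 12 hours later, from late day (hours 8 to 10) to early night (hours 13 to 15), in 12 other pools. At that dusk step 1090 genes (5.99%) rose and 1716 (9.43%) fell. The early night pools of the second cycle, CT61, CT62 and CT63, stood apart: their median correlation with the other arrays was 0.9842, 0.9881 and 0.9903, and their 75th percentile of intensity 797 to 832, against 950 to 1029 in the other 9 pools of the dusk step. Without them 240 genes rose and 211 fell. Where a call below turns on these pools, the value without them is given or the lost call is stated. Of the 105 genes that rose at dawn, 11 rose and 27 fell at dusk, and of the 68 that fell at dawn 26 rose and 1 fell. Without CT61 to CT63 these counts were 6 and 8 of the 105, and 20 and 1 of the 68, against 1.32% of all genes higher and 1.16% lower. The difference between the steps was tested in 1 fit of all 24 pools, and 2437 genes (13.4%) passed, or 869 without CT61 to CT63.

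The ER genes split in this comparison. Creld2, Manf, Hspa13 and Sec23b rose at dusk as well, by 1.38 ± 0.34 (adjusted p = 0.0123), 1.05 ± 0.20 (adjusted p = 0.0017), 1.01 ± 0.14 (adjusted p = 0.000215) and 0.67 ± 0.18 (adjusted p = 0.0196). Without CT61 to CT63 Creld2 was no longer called (1.53, adjusted p = 0.0873), and the other 3 were, with adjusted p of 0.0494, 0.0203 and 0.0474. Hspa5 had 0.47 ± 0.15 at dusk (adjusted p = 0.0512), and its dawn minus dusk difference was 0.44 ± 0.21 (adjusted p = 0.245). Syvn1 and Eif2ak3 differed, with dusk changes of -0.20 ± 0.32 and -0.39 ± 0.15, neither called, and differences of 2.09 ± 0.45 (adjusted p = 0.00584) and 1.34 ± 0.21 (adjusted p = 0.000425). Arfgap3 and Selenos differed too, by 1.78 ± 0.44 (adjusted p = 0.0131) and 0.32 ± 0.10 (adjusted p = 0.0447). Without CT61 to CT63 the difference held for Eif2ak3 alone among these 4 (1.24, adjusted p = 0.00744), with 1.38 for Syvn1 (adjusted p = 0.0692). The dusk change of Syvn1 was then 0.51 (adjusted p = 0.641 by limma), so its sign turned on these pools.

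Of the 12 largest falls at dawn, 5 rose at dusk. Nampt rose by 1.005 ± 0.15 (adjusted p = 0.000261), Nat8f5 by 1.72 ± 0.22, Hspb1 by 0.999 ± 0.23, Lonrf3 by 0.90 ± 0.17 and St3gal5 by 0.86 ± 0.14, each called. Without CT61 to CT63, St3gal5 alone of these 5 lost the call (0.67, adjusted p = 0.0579). Of the 12 largest rises 3 fell at dusk, Lgr5, Nav2 and Ndrg1, by -1.02 ± 0.22, -1.25 ± 0.27 and -0.77 ± 0.18. None of these 3 was called at dusk without CT61 to CT63 (-0.96, -0.71 and -0.29, adjusted p = 0.122, 0.263 and 0.555), while the difference between the steps was called for all 3 without them. Usp2, Bhlhe40 and Ppargc1a were not called at dusk, with -0.67, -0.58 and -0.45, or -0.02, -0.04 and -0.04 without CT61 to CT63. Cry1, uncalled at dawn, rose at dusk by 1.35 ± 0.21 (adjusted p = 0.000483), and the steps differed by -2.37 ± 0.30 (adjusted p = 7.16e-05). Arntl rose at dusk by 1.97 ± 0.29 and differed from its dawn step by -1.96 ± 0.40 (adjusted p = 0.00439). Nr1d1 had the largest difference of the named genes, 4.45 ± 0.66 (adjusted p = 0.000306), and the same size without CT61 to CT63 (adjusted p = 0.00632). Its change was -2.72 at dusk, which was called, and 1.73 at dawn, a lower bound. The early night pools CT38 and CT61 to CT63 of Nr1d1 read 122 to 125, near its lowest pool (110.3). The sizes of its dusk change and of its difference are therefore limited by the low end too. Of the clock genes, 8 of 24 had a difference that was called. Without CT61 to CT63 the call was lost for Clock, Rora and Per2 (adjusted p = 0.217, 0.104 and 0.0516 by limma).

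Other genes were named for the smallest p of the difference. On the side where dawn exceeded dusk stood Ubxn1, Hsd3b7 of bile acid synthesis, Smagp, the spliceosome ubiquitin ligase Prpf19, the mineralocorticoid receptor Nr3c2 and Amdhd1 of histidine breakdown, with differences of 1.06 (Prpf19) to 1.72 (Amdhd1). On the other side stood Tspan4, Atp6v1d of the vacuolar proton pump, Gde1, Desi2, Rbm12b1 and St3gal5, with -1.10 (Atp6v1d) to -2.17 (St3gal5). Nr3c2 fell at dusk by 1.42 and had 0.12 at dawn.

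**Figure D5:**
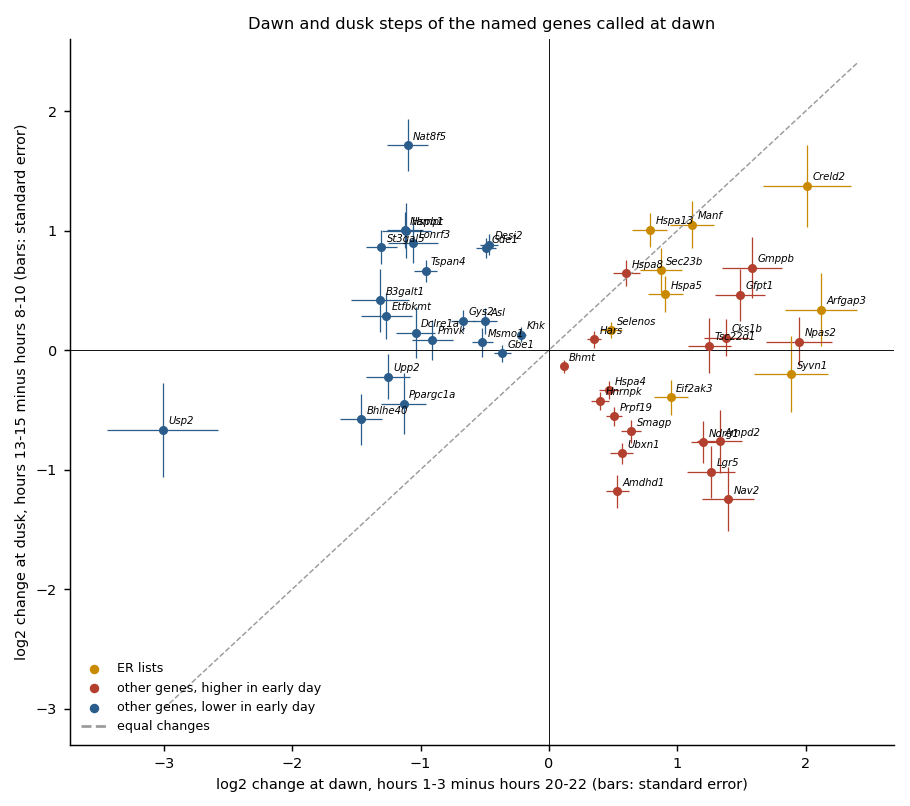
Log2 change at dawn (x axis) against log2 change at dusk (y axis) for the 48 named genes that were called at dawn, with standard errors as bars, and equal changes on the dashed line. ER genes are ochre: Manf and Hspa13 lie near the dashed line, with 1.12 and 0.79 at dawn and 1.05 and 1.01 at dusk, and Syvn1 and Eif2ak3 lie near or below 0 at dusk. Without CT61 to CT63 the dusk change of Syvn1 was 0.51.

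The step was also compared between cycles. In a fit with an interaction of group and cycle 0 probe sets were called by limma and 1069 (2.37%) had an unadjusted p under 0.05, with 3 pools a side in each cycle. Creld2 changed by 1.64 in the first and 2.39 in the second, Hspa5 by 0.73 and 1.08, Npas2 by 2.10 and 1.79 and Usp2 by -3.38 and -2.63. Without CT25 the count was 123. Among the 105 genes that rose the median size was 0.56 in the first and 0.57 in the second cycle, and among the 68 that fell 0.62 and 0.48.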

How the data were processed

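The series holds 48 hourly liver pools, of which the step used 12. By the study's methods the authors extracted intensities with GCRMA (background correction, normalization between arrays, summary of probes), while the labels name MAS5, with no version. Which of them gave the deposited values was not settled, and the methods treat dim probe sets differently, so levels and folds near the low end depend on it. The deposited intensity values are linear and were taken as log2 here with no further normalization. Each pool had 1 array, and precision rests on how many arrays there are. Symbols came from the platform annotation: 34958 probe sets had 1 gene, 932 several and 9211 none, and for each of 18194 genes the brightest probe set by mean log2 stood for the gene. Called genes were read by a probe set of the x_at type, which can match related transcripts, in 22 cases, among them Ampd2, Hspa8, Ndrg1, Prpf19 and Tsc22d1.

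Groups were compared in limma 3.58.1 (R 4.3.3) with lmFit and eBayes, cycle as a covariate, and Benjamini-Hochberg adjustment over 45101 probe sets. The dusk step and its difference from the dawn step used 24 pools in 1 fit, and the cycle comparison an interaction term. Pools are separate hours, so p-values measure the spread between hours and mice together. Genes were named by rule: the 12 largest rises and 12 largest falls among called genes with separate groups, the same sign in each cycle and a mean of 200 or more in the higher group, all clock genes, up to 4 called members of each other list by p, and 6 genes each way in the dusk comparison. The members and lists were chosen with earlier results of these data known. Of 622 list entries 568 were measured. The fits were tested on simulated data. Alternatives were other windows, terms, scales, normalizations and filters, each cycle alone and pools left out. The dusk step without CT61 to CT63, and the turn in each cycle, were added after seeing the data. Promoters are RefSeq's (GRCm38.p6). Other work used Python 3.11.15, numpy 2.4.6, pandas 2.3.3 and matplotlib 3.10.9.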

Additional observations from a re-analysis of the deposited data

Results flagged for a closer look

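Of 146 sets of 6 pools (73 named genes in 2 groups), 11 had a pool far from the other 5 by Dixon's ratio of gap to range, and chance gives about 1 in 20. In late night the pool was CT46 for Gfpt1 (ratio 0.724), Hspa5 (0.661) and Usp2 (0.736), in each case the lowest, CT21 for Per1 (0.736), CT44 for Timeless (0.689) and CT22 for Upp2 (0.751). In early day it was CT27 for Arntl (0.680), Dclre1a (0.699) and Per1 (0.727), CT25 for Cry2 (0.647) and CT51 for Timeless (0.645).

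Of the 73 named genes, 48 had a called difference between the dawn and dusk steps (22 above and 26 below), 35 of them also without CT61 to CT63. The call was lost without them for Arfgap3, Syvn1, Tsc22d1, Gfpt1, Selenos, Per2, Dclre1a, Upp2, Pmvk, Clock, Msmo1, Rora and Khk. Over all genes 13.4% had one. Among the named genes, 6 each way were chosen by this difference, and the largest rises and falls by its dawn part. The counts here, those of the largest rises and falls included, therefore follow in part from the choice of genes. The dawn minus dusk differences of the log2 changes above 0 were Nr1d1 (4.45), Nav2 (2.64), Lgr5 (2.28), Ampd2 (2.09), Syvn1 (2.09), Ndrg1 (1.97), Npas2 (1.88), Arfgap3 (1.78), Amdhd1 (1.72), Nr3c2 (1.54), Ubxn1 (1.43), Eif2ak3 (1.34), Smagp (1.32), Hsd3b7 (1.28), Cks1b (1.28), Tsc22d1 (1.21), Prpf19 (1.06), Gfpt1 (1.03), Hnrnpk (0.82), Hspa4 (0.80), Selenos (0.32) and Bhmt (0.25). Those below 0 were Nat8f5 (-2.82), Cry1 (-2.37), Usp2 (-2.34), St3gal5 (-2.17), Nampt (-2.13), Hspb1 (-2.11), Rbm12b1 (-2.03), Arntl (-1.96), Lonrf3 (-1.95), B3galt1 (-1.73), Tspan4 (-1.62), Etfbkmt (-1.56), Per2 (-1.53), Desi2 (-1.35), Gde1 (-1.34), Dclre1a (-1.19), Atp6v1d (-1.10), Upp2 (-1.03), Pmvk (-0.99), Gys2 (-0.92), Asl (-0.74), Clock (-0.67), Msmo1 (-0.58), Rora (-0.45), Khk (-0.35) and Gbe1 (-0.33). Among the 12 largest rises 10 were called in this difference and 6 without CT61 to CT63, and among the 12 largest falls 10 and 9.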

How the results depend on the processing

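The count of 287 probe sets called in the step was 276 with no cycle term, 317 after quantile normalization and 231 with trend and robust variances. It was 481 with 24 pools in 1 fit, 744 with hours 19 to 22 against 1 to 4, 563 among probe sets of mean intensity 100 or more, 161 on linear intensities, 133 at 1.5-fold or more, 139 without CT25, CT27 and CT46, 0 in the first cycle alone by limma (3223 at an unadjusted p under 0.05) and 1 in the second (2603), with 3 pools a side. Leaving out 1 pool at a time gave 114 to 550: 550 without CT25, 115 without CT26, 161 without CT50, 144 without CT20, 114 without CT21 and 116 without CT44, and between 198 and 303 without any of the others. By any probe set of a gene, 230 genes were called against 173. For the difference from the dusk step the count of 4078 was 1460 without CT61 to CT63, 95 in the first cycle alone and 4158 after quantile normalization, which moved the share above from 57.0% to 47.4%, and 3109 to 5477 with 1 pool left out. The dusk step itself had 4815 called probe sets and 773 without CT61 to CT63. The step by cycle had 0 to 123 called with 1 pool left out, 123 without CT25, and 0 after quantile normalization. The cause of these shifts was not tested. Medians at the turn were 65.9% and 52.1% in the first and second cycle for genes that rose and 58.9% and 66.3% for those that fell.

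Over 1056 values of the 48 named called genes under the alternatives, 687 kept the call, 369 lost it and 0 changed sign. Of the 48, 16 stayed called with every pool left out in turn, among them Npas2, Bhlhe40, Nampt, Arfgap3 and St3gal5, and the others, Hspa5, Creld2, Manf and Syvn1 included, did not. The labels give hours and no replicate numbers, so cycle, a term of the fit, was the block used. Array signal limits Bhlhe41, Timeless and Fbxl21, dim in most pools, and makes the changes of Npas2 and Nr1d1 lower bounds.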
